A study of Mus musculus with 9 samples.

Results

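The 9 genes of the liver X receptor (LXR) pathway and of sterol efflux studied here were followed in J774A.1 cells, an established line of mouse macrophages, across 9 RNA-seq libraries, as the entries of the deposited expression table that carry their gene symbols. All 9 genes, of 26157 in the table, were present and passed the filter used for testing (at least 1 TPM, reads scaled for transcript length and library size, in 3 or more libraries). They comprise the receptors Nr1h3 and Nr1h2, the exporters Abca1 and Abcg1 with their acceptor Apoe, the ubiquitin ligase Mylip, the phospholipid enzyme Lpcat3 and the lysosomal sterol carriers Npc1 and Npc2. Poly-A RNA came from 3 libraries in each of 3 groups. Q11 cells received Q11, named in the series title as a CYP2E1 inhibitor, together with both cytokines, M2 cells the cytokines IL-4 and IL-13 alone, at 10 ng/mL, and control cells were grown under normal conditions. The cytokine dose is recorded for M2 cells only. No source used here gives the dose of Q11 or the length of treatment. All 3 groups are the same cell line, and the labels do not say whether the 3 libraries of a group came from separate cultures, so p-values measure the spread between these libraries, which may be technical.

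LXRs are nuclear receptors that bind oxysterols and, paired with a retinoid X receptor, switch on genes that move cholesterol out of the cell. In macrophages, NR1H3 (LXRα) and NR1H2 (LXRβ) act on the transporter genes Abca1 and Abcg1, which load cholesterol onto apolipoproteins and high-density lipoprotein, on Mylip, whose product marks the LDL receptor for degradation, and on Lpcat3, which places polyunsaturated chains into phospholipids. NPC1 and NPC2 hand cholesterol out of the lysosome, upstream of these exporters.

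The promoters of Abca1 and Mylip are shown because these are the LXR targets with the largest decrease and increase among the calls between M2 and control cells. Each is the RefSeq promoter window of build GRCm38.p6, from 250 bases before to 50 bases after a gene start, printed 5′ to 3′ on the strand of the gene. Capitals mark the best match to the direct repeat of AGGTCA with 4 bases of any kind between the copies, searched on both strands. It holds 9 of the 12 fixed letters in Abca1 and 7 in Mylip. The windows lie at chr4:53159846-53160145 on the minus strand (Abca1) and chr13:45389492-45389791 on the plus strand (Mylip).
Abca1: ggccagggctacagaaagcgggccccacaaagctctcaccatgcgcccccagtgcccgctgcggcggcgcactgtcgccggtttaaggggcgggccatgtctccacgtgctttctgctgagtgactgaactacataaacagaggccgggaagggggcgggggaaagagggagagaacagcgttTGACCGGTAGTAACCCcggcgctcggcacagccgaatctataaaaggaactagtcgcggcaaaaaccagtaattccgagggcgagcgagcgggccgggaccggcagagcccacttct
Mylip: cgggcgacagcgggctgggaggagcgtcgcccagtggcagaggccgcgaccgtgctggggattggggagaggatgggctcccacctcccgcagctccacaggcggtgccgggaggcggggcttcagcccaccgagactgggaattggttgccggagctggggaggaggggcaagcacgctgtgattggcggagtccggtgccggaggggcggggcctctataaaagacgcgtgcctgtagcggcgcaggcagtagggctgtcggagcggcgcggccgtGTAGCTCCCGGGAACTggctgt
In Abca1 the match runs from -67 to -52 relative to the start, on the opposite strand. A match of at least 9 letters occurs in 21.9% of the 32851 RefSeq promoters. The E-box CACGTG, also searched on both strands, stands in lower case from -147 to -142 in Abca1, apart from the repeat, and occurs in 7.15% of promoters. In Mylip the best match runs from 29 to 44, also on the opposite strand, and the remaining 5 matched genes reached 8 of 12 letters. The shares of promoters that reach 7 or 8 letters were not computed. Promoters were matched for 7 of the 9 genes, as 10 windows. Abcg1 and Npc1 had no entry. These matches describe letters only.

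Sequencing depth, recovered from the TPM values, was 15809432 to 17089171 reads in 8 libraries and 32180914 reads in Q11 replicate 2. Of 19235 genes read in Q11 replicate 3, only 10 had fewer reads in Q11 replicate 2, against 1928 to 2406 genes when Q11 replicate 2 was set beside each of the other 7 libraries. Q11 replicate 2 thus holds nearly every read that Q11 replicate 3 holds, and its values were also computed after subtracting those reads, which left 15330205. All 8 macrophage markers were present, with Cd68 at 2430 to 2653 TPM and Csf1r at 328 to 385 TPM across the 9 libraries. Their summed level was 7775 to 7847 TPM in Q11 libraries, 7399 to 7999 TPM in M2 libraries and 11418 to 11836 TPM in control libraries. Lyz2 made up the largest part of this sum, at a mean of 3722 TPM in Q11, 3595 TPM in M2 and 6859 TPM in control libraries. Lyz2, Cd14, Itgam and Ptprc were lower in M2 than in control libraries, while in Adgre1, Cd68, Csf1r and Fcgr1 these libraries overlapped. What part these marker levels have in the results below was not tested. Of 15 markers of other cell types, 8 were in the table and 1 (Pdgfra) passed the filter, and those 8 summed to 1.303 to 2.63 TPM in Q11, 1.68 to 2.20 TPM in M2 and 1.42 to 2.20 TPM in control libraries. The IL-4 response genes Mrc1, Mgl2 and Clec10a were higher in M2 than in control libraries, with Mrc1 at 87.3 ± 1.71 TPM in M2 and 19.6 ± 0.666 TPM in control libraries (SD, n = 3 each). Arg1, also on that list, reached the filter's level in the 6 Q11 and M2 libraries alone, so its higher level there is no check of the labels.

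The first comparison, of M2 with control cells, asks what IL-4 and IL-13 did to these genes. Mylip rose to 1.28 times its control level, Npc1 and Lpcat3 rose by smaller amounts, and Abca1 fell to 0.754 times its control level. Neither receptor passed the test, nor did Abcg1, Apoe or Npc2. With limma on log2(TPM + 1) and Benjamini-Hochberg adjustment over 14207 genes, 4 of the 9 genes had an adjusted p under 0.05, 3 higher and 1 lower, against 12.6% of all genes tested (6.88% higher and 5.75% lower). In 5 of the 9 genes the M2 and control libraries did not overlap, against 28.4% of all genes. With the shared reads of Q11 replicate 2 subtracted, the same counts were 4 called, against 9.25%, and 5 without overlap, against 28.7%. The median log2 difference was 0.08 over the 9 genes and -0.0026 over all genes tested. In bulk RNA, fewer cells of a type and less RNA per cell cannot be told apart.

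**Figure D1:**
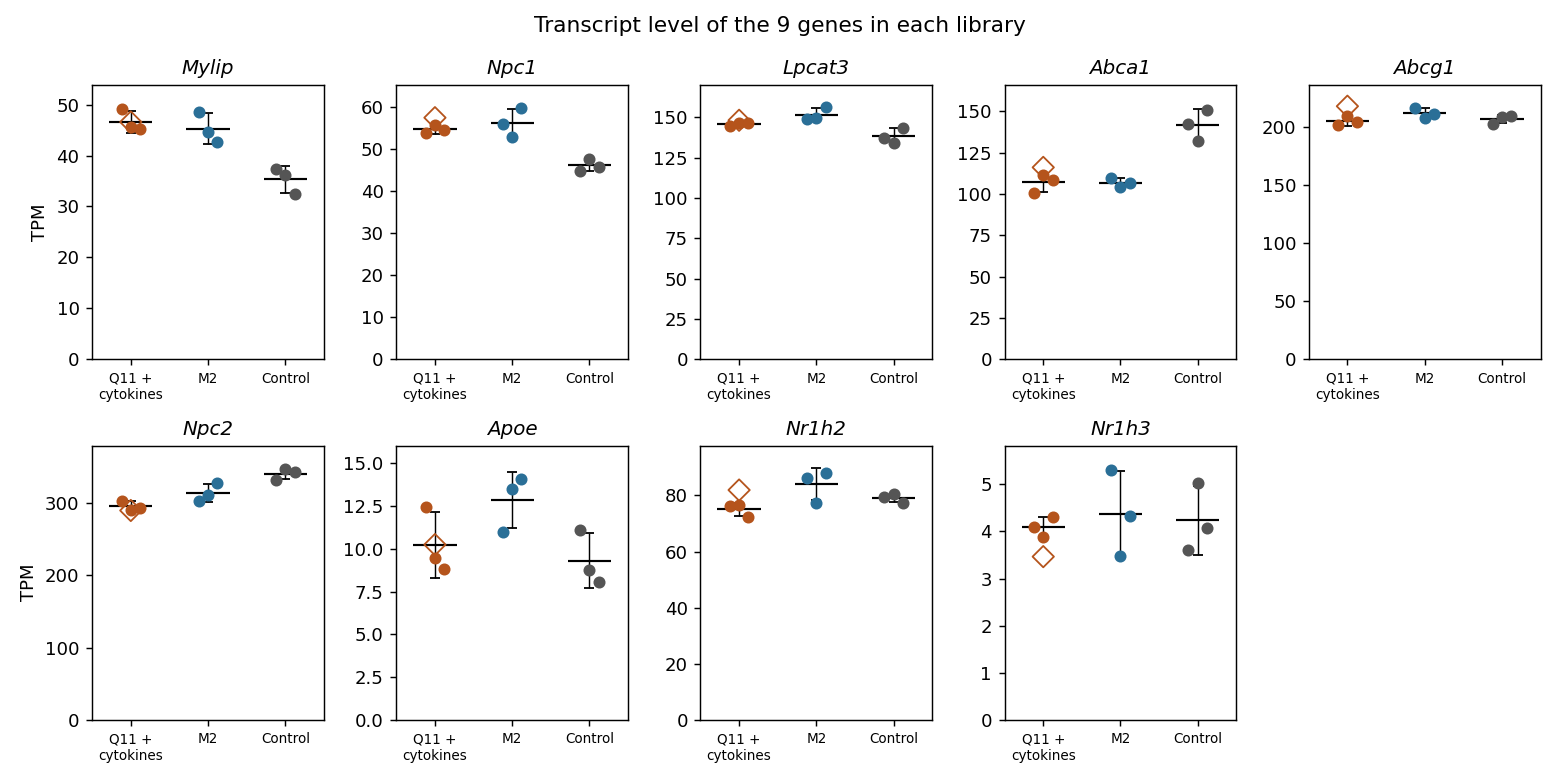
Level of each of the 9 genes in TPM (vertical axis, from 0), by library, in Q11, M2 and control cells; bars are group means, error bars SD (n = 3), and the open diamond is Q11 replicate 2 after the reads shared with Q11 replicate 3 were subtracted. Abca1 lies at 101 to 112 TPM in all Q11 and M2 libraries and at 132 to 151 TPM in control libraries, while Mylip lies higher in Q11 and M2 than in control libraries and Abcg1 spans 202 to 217 TPM over all 9.

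The receptors, which stand first in the pathway, did not pass the test. Nr1h2 had 76.1, 76.7 and 72.4 TPM in Q11 libraries, 86.2, 77.5 and 88.2 TPM in M2 libraries, and 79.6, 80.4 and 77.5 TPM in control libraries. M2 replicate 2 lay level with the lowest control library, while the remaining M2 libraries lay above all of them. The log2 difference of M2 from control was 0.08 (95% interval -0.03 to 0.19, limma adjusted p = 0.338), and without M2 replicate 2 the adjusted p was 0.0470 (0.0470 to 0.644 over the alternatives tried). Nr1h3 was the lowest of the 9 genes, with 4.09, 3.89 and 4.30 TPM in Q11, 5.30, 3.48 and 4.33 TPM in M2, and 3.61, 5.03 and 4.07 TPM in control libraries. The groups overlapped, and these levels rest on only 50, 93 and 54 recovered reads in Q11, 67, 41 and 52 in M2, and 44, 64 and 50 in control libraries. Its difference of M2 from control was 0.03 with an interval of -0.31 to 0.37 (adjusted p = 0.928). In every library Nr1h2 stood above Nr1h3 on the per-length TPM scale. Nr1h3 overlaps Gm13783 on the same strand, which averaged 0.697 TPM, and how reads in the overlap were counted is not stated.

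Abca1, which pumps cholesterol and phospholipid onto lipid-poor apolipoprotein A-I, was lower in M2 than in control cells. It had 101, 112 and 109 TPM in Q11 libraries, 109.7, 104 and 107 TPM in M2 libraries, and 142, 132 and 151 TPM in control libraries. Every M2 library lay below every control library, with no overlap. The means were 107 ± 2.80 TPM in M2 and 142 ± 9.59 TPM in control libraries (SD, n = 3 each), a log2 difference of -0.40 (95% interval -0.53 to -0.28, limma adjusted p = 0.00195), which stood 944th from the lowest of 14207. The gene (ENSMUSG00000015243) lies at chr4:53030787-53159895 on the minus strand of GRCm38, and its promoter is the first one printed above.

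Abcg1, the transporter that delivers cholesterol to mature high-density lipoprotein, was the steadiest of the 9 genes by its range over the 9 libraries. Its level was 202, 209.8 and 204 TPM in Q11, 217, 208 and 211 TPM in M2, and 203, 209 and 209 TPM in control libraries. The gene lies at chr17:31057675-31117988 on the plus strand. The 3 groups overlapped, and the highest library was 1.07 times the lowest. The log2 difference of M2 from control was 0.03 with an interval of -0.03 to 0.10 (adjusted p = 0.471), an interval that lies above the whole interval found for Abca1. Apoe, the apolipoprotein that accepts cholesterol, was low, at 12.4, 9.45 and 8.80 TPM in Q11, 10.98, 13.5 and 14.1 TPM in M2, and 11.1, 8.78 and 8.05 TPM in control libraries. M2 replicate 1 and control replicate 1 stood side by side, so the groups overlapped. The log2 difference was 0.43 (interval 0.09 to 0.77) and missed the threshold with an adjusted p of 0.107 (0.0530 to 0.266 over the alternatives). At most 192 reads of Apoe were recovered in any library.

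Mylip, also called IDOL, moved the other way from Abca1. It had 49.0, 45.7 and 45.1 TPM in Q11 libraries, 48.6, 44.6 and 42.6 TPM in M2 libraries, and 37.4, 36.2 and 32.4 TPM in control libraries. The lowest M2 library lay above the highest control library. The gene lies at chr13:45389742-45412022 on the plus strand. The log2 difference of M2 from control was 0.35 (95% interval 0.20 to 0.50, limma adjusted p = 0.0104), and it passed in all 18 alternatives. Lpcat3 had 145, 147 and 146 TPM in Q11, 149, 149.6 and 156 TPM in M2, and 137, 134 and 144 TPM in control libraries. Its M2 and control libraries did not overlap, but the nearest were 149 and 144 TPM. The log2 difference was 0.13 (interval 0.06 to 0.20, adjusted p = 0.0283), and it passed in 10 of 18 alternatives, with adjusted p from 0.0198 to 0.0867. Leaving out control replicate 1 ended the call (adjusted p = 0.0867), as did leaving out control replicate 2 (0.0854) or M2 replicate 3 (0.0752). So did leaving out Q11 replicate 2 (0.0530) or Q11 replicate 3 (0.0513). Quantile normalization (0.0842), no variance trend (0.0794) and a fit of only the 2 groups compared (0.0820) also ended it. The call was kept with the shared reads subtracted (0.0436). Lpcat3 overlaps Emg1 on the opposite strand, which averaged 102 TPM, and since the counting was not stated to use strand, reads in the overlap cannot be told apart.

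The lysosomal pair did not move together. Npc1, the membrane protein that takes cholesterol from NPC2, had 53.7, 55.7 and 54.5 TPM in Q11 libraries, 56.0, 52.7 and 59.6 TPM in M2 libraries, and 44.8, 47.7 and 45.8 TPM in control libraries. All M2 libraries lay above all control libraries. The log2 difference was 0.28 (95% interval 0.17 to 0.38, limma adjusted p = 0.00601), and it passed in all 18 alternatives. Npc1 overlaps Rmc1 on the opposite strand, at a mean of 22.0 TPM. Npc2, the soluble lysosomal carrier and the most abundant of the 9 transcripts, had 303, 290.4 and 293 TPM in Q11, 303, 311 and 327 TPM in M2, and 332, 347 and 343 TPM in control libraries. Its M2 libraries all lay below its control libraries, yet the log2 difference of -0.12 (interval -0.20 to -0.04) just missed the threshold, with an adjusted p of 0.0505. It passed in 4 of 18 alternatives, among them the fit without M2 replicate 3 (0.0219), with adjusted p between 0.0123 and 0.139.

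On the TPM scale, the order of the 9 mean levels in Q11 and in M2 libraries ran Npc2, Abcg1, Lpcat3, Abca1, Nr1h2, Npc1, Mylip, Apoe and Nr1h3, whereas in control libraries Abca1 and Lpcat3 changed places and the rest kept theirs. In control libraries the ranges of Abca1 and Lpcat3 overlapped, so their order there does not hold beyond the spread. No neighbours overlapped in Q11 or M2 libraries.

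The second comparison, of Q11 with M2 cells, asks what Q11 added to the cytokines, if both groups received the same cytokine dose. None of the 9 genes passed the test, and the mean level of Abca1 was 107 ± 5.76 TPM in Q11 cells, against 107 ± 2.80 TPM in M2 cells (SD, n = 3 each). Mylip averaged 46.6 ± 2.13 TPM in Q11 cells and 45.3 ± 3.07 TPM in M2 cells (SD, n = 3 each). By limma, 0 of the 9 genes had an adjusted p under 0.05, against 0.0% of all genes, and 2 of the 9 (Nr1h2 and Npc2) had an unadjusted p under 0.05, as did 1620 of the 14207 genes tested. A weighted limma fit of the recovered reads (limma-voom) called 0 of the 9 and 2 genes in all. Q11 and M2 libraries did not overlap in 3 of the 9 genes, Nr1h2, Npc2 and Lpcat3, each lower in Q11 and Npc2 by the narrowest margin, against 17.6% of all genes. With the shared reads of Q11 replicate 2 subtracted this was 2 of 9, without Nr1h2, against 12.6%.

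The intervals below treat the 3 Q11 libraries as independent, although Q11 replicate 2 holds nearly all reads of Q11 replicate 3. For Abca1 the log2 difference of Q11 from M2 was 0.00 (95% interval -0.12 to 0.13, limma adjusted p = 0.996), for Abcg1 -0.05 (interval -0.11 to 0.02) and for Mylip 0.04 (interval -0.11 to 0.19). This comparison and that of M2 with control cells use the same M2 libraries, so their values are not independent. For Abca1, a difference of -0.40, as between M2 and control cells, or its reverse lay outside the interval of -0.12 to 0.13. It also lay outside the interval of -0.12 to 0.16 found with the shared reads subtracted. The SD of Abca1 among Q11 libraries was then 7.74 TPM, beside 5.76 TPM as deposited, that of Abcg1 8.78 TPM beside 4.17 TPM, and that of Nr1h2 4.79 TPM beside 2.30 TPM. The intervals for Npc1 (-0.14 to 0.07) and Lpcat3 (-0.13 to 0.02) also included 0. Nr1h2 averaged 75.1 ± 2.30 TPM in Q11 and 84.0 ± 5.70 TPM in M2 libraries (SD, n = 3 each), a log2 difference of -0.16 (interval -0.27 to -0.05, adjusted p = 0.352). With shared reads subtracted it was -0.13 (interval -0.26 to 0.0055), and Q11 replicate 2 then stood at 82.0 TPM, among the M2 libraries. Npc2 differed by -0.09 (interval -0.16 to -0.01, adjusted p = 0.392). Apoe differed by -0.31 and Nr1h3 by -0.06, with intervals of -0.65 to 0.03 and -0.40 to 0.28, the widest of the 9.

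**Figure D2:**
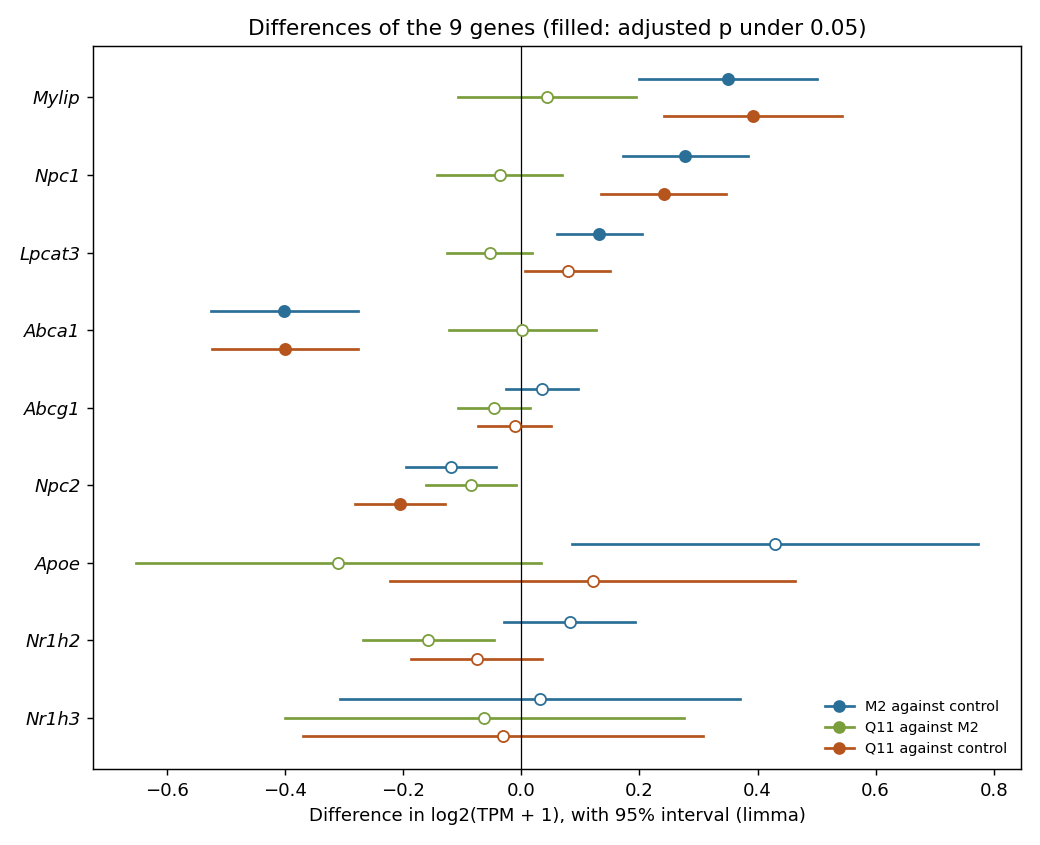
Log2 difference of each of the 9 genes (horizontal axis, log2(TPM + 1) scale) with its 95% interval, in the 3 comparisons; filled points have a limma adjusted p under 0.05. Abca1 stands at -0.40 in both comparisons against control, Mylip at 0.39 in Q11 and 0.35 in M2, and no point is filled for Q11 against M2.

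The third comparison, of Q11 with control cells, uses the same control libraries as the first, so the values of both comparisons are not independent. Mylip and Npc1 were higher and Abca1 and Npc2 lower in Q11 than in control libraries. That is 2 of 9 genes higher and 2 lower, against 10.7% of all genes called (5.19% higher and 5.53% lower), and with the shared reads subtracted 4 were called, against 7.92%. The libraries did not overlap in 6 of the 9, against 32.1% of all genes, and in 5 with the shared reads subtracted, against 26.8%. The median difference was -0.01 over the 9 genes and 0.0035 over all genes tested.

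Abca1 differed from control by -0.40 on the log2 scale in Q11 cells (95% interval -0.52 to -0.28, limma adjusted p = 0.00219), beside -0.40 in M2 cells. Mylip stood 0.39 higher (interval 0.24 to 0.54, adjusted p = 0.00659), beside 0.35 in M2 cells, and Npc1 0.24 higher (adjusted p = 0.0127). Npc1 lost its call without Q11 replicate 2 (adjusted p = 0.0560, against 1.35e-04 to 0.0560 over the alternatives). Npc2 was lower in Q11 than in control cells, at 296 ± 6.94 TPM in Q11 and 341 ± 7.48 TPM in control libraries (SD, n = 3 each), a log2 difference of -0.21 (adjusted p = 0.00555). Lpcat3 was 0.08 from control (adjusted p = 0.174). Abcg1 at -0.01, Nr1h2 at -0.08, Nr1h3 at -0.03 and Apoe at 0.12 did not pass either.

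The genes around the pathway were counted in 6 lists that hold 75 genes, of which 67 were in the table and 57 were tested. In M2 against control 4 were higher and 7 lower, which is 19.3% beside 12.6% of all genes. The RXR partners and coregulators, with which LXRs act, gave 0 calls among 12 by limma and 0 by limma-voom, with 0 at an unadjusted p under 0.05, and their 2 most abundant genes were Ncoa3 at 136 ± 4.44 TPM in M2 and 133 ± 2.32 TPM in control libraries and Gps2 at 109 ± 5.04 TPM in M2 and 103 ± 2.30 TPM in control libraries (SD, n = 3 each). Among 7 other LXR targets 2 were called (28.6%, beside the same 12.6%): Fasn (fatty acid synthase) rose by 0.18 (adjusted p = 0.00343) and Lpl (lipoprotein lipase) fell by 0.24 on the log2 scale (adjusted p = 0.00782). Srebf1, the LXR target that drives fatty acid synthesis, had 179 ± 11.05 TPM in M2 and 176 ± 9.53 TPM in control libraries (SD, n = 3 each; log2 difference 0.02, adjusted p = 0.857), and it is named here by choice, after its values were seen.

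Of 14 genes of sterol uptake, esterification and trafficking, 1 rose and 3 fell in M2 against control (28.6%, beside 12.6% of all genes). Lipa, the lysosomal acid lipase, fell by 0.20 on the log2 scale (adjusted p = 0.00133), the scavenger receptor Msr1 fell by 0.25 (adjusted p = 0.00244) and the oxysterol-making Cyp27a1 fell by 0.16 (adjusted p = 0.0437, and 0.0592 with the shared reads subtracted), while Tmem97, which binds NPC1, rose by 0.20 (adjusted p = 0.00689). Lipa averaged 301 ± 4.67 TPM in M2 and 347 ± 7.40 TPM in control libraries. Of 13 genes of the SREBP2 axis, which makes cholesterol, 2 passed the test, which is 15.4% and near the 12.6% of all genes. Both were higher, Lss by 0.26 (adjusted p = 0.00786) and Sqle by 0.14 (adjusted p = 0.0171), and in limma-voom 3 passed. In Q11 against control 4 of these 13 passed, all higher (30.8%, beside 10.7% of all genes, 5.19% higher). With the shared reads subtracted 2 passed there, beside 7.92% of all genes.

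Among 6 relatives of the exporters, 2 passed the test (33.3%, beside 12.6% of all genes): Abcg2 fell by 0.34 (adjusted p = 0.00387) and Abca8b fell by 0.47 (adjusted p = 0.0339, and 0.0530 with the shared reads subtracted). Among 5 relatives of Lpcat3, 1 was called (beside 12.6% of all genes): Lpcat2 fell to 15.4 ± 1.87 TPM in M2, against 23.1 ± 0.634 TPM in control libraries (log2 difference -0.56, adjusted p = 0.00302), where Lpcat3 rose. In Q11 against M2 limma called 0 of the 57 genes, with 5 at an unadjusted p under 0.05 and 0 called by limma-voom. In Q11 against control 6 were higher and 7 lower, which is 22.8% beside 10.7%.

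**Figure D3:**
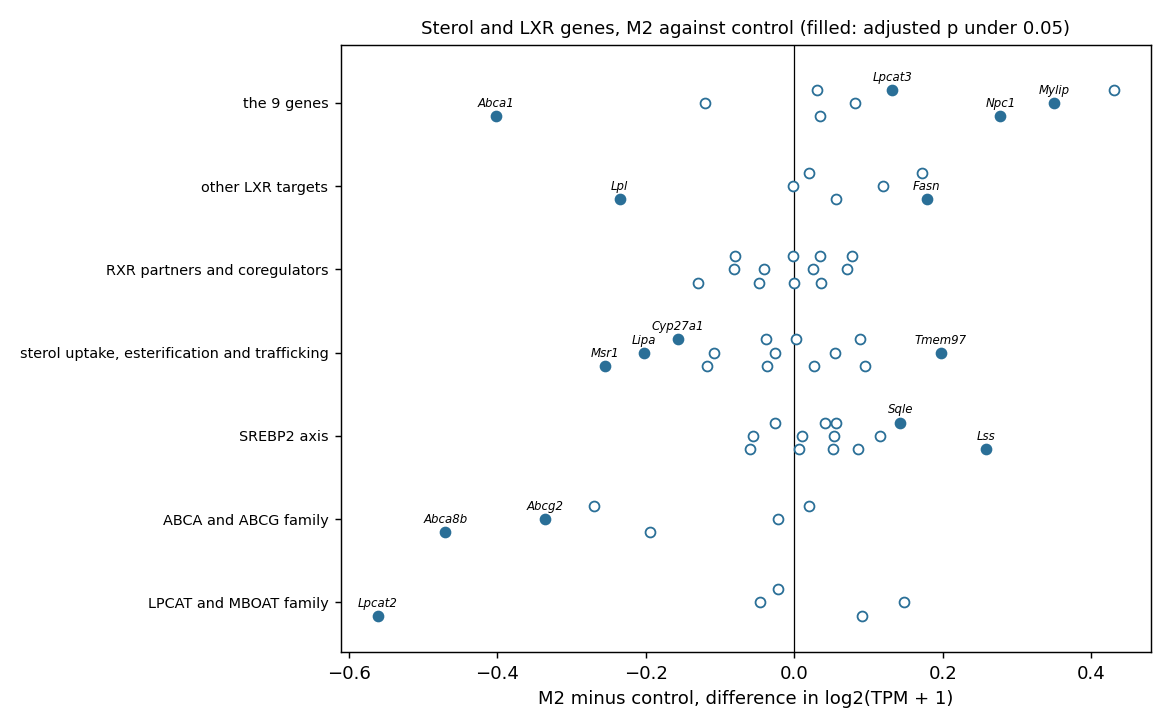
Log2 difference of M2 from control (horizontal axis, log2(TPM + 1) scale) for every tested gene of the 9 LXR and efflux genes and of each of 6 surrounding lists, 1 point a gene, filled where the limma adjusted p is under 0.05. Mylip at 0.35 is the filled point farthest right, and Lpcat2 at -0.56 the one farthest left.

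The genes whose level over the 9 libraries followed Abca1 most closely, out of 9425 with a mean of at least 5 TPM, were Pik3cb (Pearson r = 0.987), Irf8 (0.983), Cyria and Rps6ka2 (0.982 each) and Ggta1 (0.981). The libraries fall into control libraries on one side and M2 and Q11 libraries on the other, so these coefficients describe that split and carry no test. Irf8 averaged 65.1 TPM in Q11, 65.8 TPM in M2 and 89.4 TPM in control libraries.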

How the data were processed

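RNA was sequenced in 9 libraries, and the values are the TPM the authors deposited per gene, made with HISAT2 2.0.5, StringTie 1.3.3b and GRCm38 (mm10), per the submitters' processing notes. No source used here gives the annotation release or how reads were counted. TPM are not counts, so log2(TPM + 1) of genes that reached 1 TPM in 3 or more libraries was fitted with limma 3.58.1 (R 4.3.3, trended variance, all 9 libraries, adjusted p under 0.05 by Benjamini-Hochberg, two-sided). The fit was also run on simulated libraries drawn independently, which does not cover the reads shared by Q11 replicates 2 and 3. Fold changes on this scale are understated for low genes.

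Reads were recovered from TPM with GENCODE M21 exon lengths, which 97.8% of genes had; 98.8% to 99.1% of low values (up to 20 reads) were whole within 0.1 read. Depth was about equal except in Q11 replicate 2. Intervals cover the spread between libraries, which includes the sampling error of reads at every level, the lowest counts included. Alternatives were another pseudocount (0.1), no filter, a filter of 5 TPM, quantile normalization, no variance trend, shared reads subtracted, limma-voom on recovered reads, only the groups compared, a replicate block and each library left out.

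The genes and lists were chosen with earlier results of these data known. 1 further gene of the set is not reported here. All 9 genes are named. From each other list up to 4 called genes with the smallest adjusted p are named, or, in a list with none, up to 2 with the highest mean. For Abca1 the 5 genes most correlated are named, with clone-like symbols left out. Genes of the lists that were not in the table were not analysed here.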

Additional observations from a re-analysis of the deposited data

How the results depend on the processing

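The number of the 9 genes called stayed between 3 and 5 in M2 against control, at 0 in Q11 against M2 and between 3 and 4 in Q11 against control under every alternative run. The count of all genes called in M2 against control was 1794 in the main fit, 1909 with the filter of 5 TPM and 2294 by limma-voom. It was 1110 with only the 2 groups in the fit and 1146 to 1656 with a library left out (1146 without control replicate 1, 1178 without control replicate 3). In Q11 against M2 it was 3 with no filter, 2 with no trend, 2 by limma-voom and 0 to 2 with a library left out, and in Q11 against control it was 771 to 1616 with a library left out (792 without Q11 replicate 2, 771 without Q11 replicate 3). Over all tested genes, libraries with the same replicate number shared no deviation (correlations between -0.03 and 0.04). The labels do not say whether equal numbers belong together, and single genes may differ. With the replicate block the fits called 1335, 0 and 1086 genes and 4, 0 and 4 of the 9. Differences near 0 changed sign, and the cause was not tested. With a library left out, M2 against control ranged from -0.091 to 0.15 for Nr1h3. Q11 against M2 ranged from -0.030 to 0.045 for Abca1, -0.19 to 0.060 for Nr1h3 and -0.080 to 0.0070 for Npc1. Q11 against control ranged from -0.12 to 0.075 for Nr1h3, -0.015 to 0.24 for Apoe and -0.028 to 3.18e-04 for Abcg1, which was 0.0066 with the shared reads subtracted. Nr1h3 and Apoe rest on 41 to 93 and 84 to 192 recovered reads a library.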
